A study of Macaca mulatta with 30 samples.

Results

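The corticotropin-releasing hormone (CRH) system was described in cortical area 32, a medial prefrontal region, of 30 male rhesus macaques that had drunk ethanol by choice. Its 4 genes, CRH, CRHBP, CRHR1 and CRHR2, were taken by symbol from a table of 15521 genes. All 4 were present, and all 4 passed the filter on low values (10 or more normalized reads in 6 or more libraries, met by 12935 genes). They were chosen by name and not by a measured value, though with earlier results of these data known.

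CRH is the peptide that starts the hormonal stress response from the hypothalamus, and in the cortex it is made by local neurons, largely GABAergic interneurons. It acts on CRHR1, a receptor of the secretin family that couples mainly to the stimulatory G protein and cyclic AMP. CRHR2 is the related receptor that prefers the urocortins, and CRHBP is a secreted protein that binds CRH and limits its access to receptors. The system has long been studied in alcohol dependence, mostly in the amygdala.

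All animals had no earlier experimental history, were induced to drink 4% ethanol and then had open access to it for over 12 months, 22 h a day, with water and meals at hand. No library from an animal without ethanol was analysed here, so the low drinkers are the reference group and also carry the exposure. The labels sort the animals into 10 low drinkers (LD), 7 binge drinkers (BD), 7 heavy drinkers (HD) and 6 very heavy drinkers (VHD). A binge drinker took at least 2 g/kg on at least 55% of days and reached a blood ethanol of 80 mg/dl at least once a year. A heavy drinker took at least 3 g/kg on at least 20% of days. A very heavy drinker averaged over 3 g/kg a day and passed 4 g/kg on at least 10% of days. A low drinker met none of these definitions.

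The animals came from 4 cohorts, which the labels number 4 (9 animals), 5 (8), 7a (8) and 7b (5), with mean ages at the end of drinking of 9.98, 7.15, 5.70 and 7.18 years. Category and cohort overlapped only in part: cohort 5 held no LD animal, and cohorts 4 and 7b held no VHD animal. Total RNA was depleted of ribosomal RNA, sequenced from stranded libraries and deposited as reads per gene scaled to a common upper quartile, called normalized reads here. The libraries held 4.39 to 13.99 M recovered gene reads (M, 10 to the power of 6), the medians being 8.76 M for LD animals, 6.15 for BD animals, 10.7 for HD animals and 9.78 for VHD animals. Each library is 1 animal, and area 32 was dissected whole, so that fewer cells of a type and less RNA per cell cannot be told apart. The cortical excitatory neuron marker TBR1 was abundant, with a median of 608 normalized reads. Of the 7 hypothalamic markers measured, 6 had medians under 1 normalized read: OXT was at 0 in 24 libraries, SIM1 in 24, OTP in 24, PMCH in 23, AGRP in 28 and HCRT in 12. The other marker, AVP, was read in all 30, at 2.07 to 22.0 normalized reads (median 8.11).

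Per kilobase of exon, the receptor CRHR1 and the binding protein CRHBP were the most abundant members, CRH was lower and CRHR2 lowest. The levels were 94.0 ± 12.9 normalized reads per kb for CRHR1 and 88.4 ± 17.2 for CRHBP (SD, n = 30). CRH stood at 36.7 ± 7.45 and CRHR2 at 7.93 ± 2.82 normalized reads per kb (SD, n = 30). CRHR1 and CRHBP did not differ beyond their spread, CRHR1 being the higher in 19 of 30 animals. The order below them held in every animal: CRHBP was above CRH in 30 of 30 and CRH above CRHR2 in 30 of 30. Among all 15521 genes these levels fell at the 56.3rd, 54.8th, 37.5th and 21.6th percentile, so the receptor and binding protein sat near the middle of the table and CRHR2 well below them. The mean level of CRHR1 per kb was 11.9 times that of CRHR2, and that of CRHBP was 2.41 times that of CRH.

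The other ligands of these receptors were scarce. UCN, which encodes urocortin and binds both receptors, was read in all 30 libraries at 5.34 to 19.5 normalized reads per gene (median 12.4), from 358 whole reads in all. UCN2, a ligand of CRHR2, was at 0 in 25 libraries and UCN3, another CRHR2 ligand, in 26, with 6 whole reads each over the 30 libraries. A count of 0 allows up to 3 reads in a library, so they were not detectable at this depth, which does not show them absent. CRH itself was therefore the most read ligand gene of the family.

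The peptide gene CRH did not pass the test of a difference in any drinking category. Its normalized reads ran from 36.6 to 75.3 in the LD animals (median 51.1), 43.1 to 68.4 in the BD animals (median 46.0), 38.4 to 70.3 in the HD animals (median 52.2) and 36.0 to 62.3 in the VHD animals (median 57.6). The 4 ranges overlapped almost whole, and the lowest and highest animals of the study were a VHD and an LD animal. With cohort in the model, limma gave a difference of -0.018 ± 0.18 (SE) for VHD against LD on the log2(normalized reads + 1) scale (adjusted p = 0.994, edgeR -0.0032). Its 95% interval, -0.39 to 0.35, sets how large a change of CRH these animals could hide, if category and cohort effects add up. Only cohort 7a held animals of both categories, 2 VHD and 3 LD. The differences from LD were -0.046 ± 0.15 for HD (adjusted p = 0.915) and -0.014 ± 0.14 for BD (adjusted p = 0.999), and none passed the test.

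**Figure D1:**
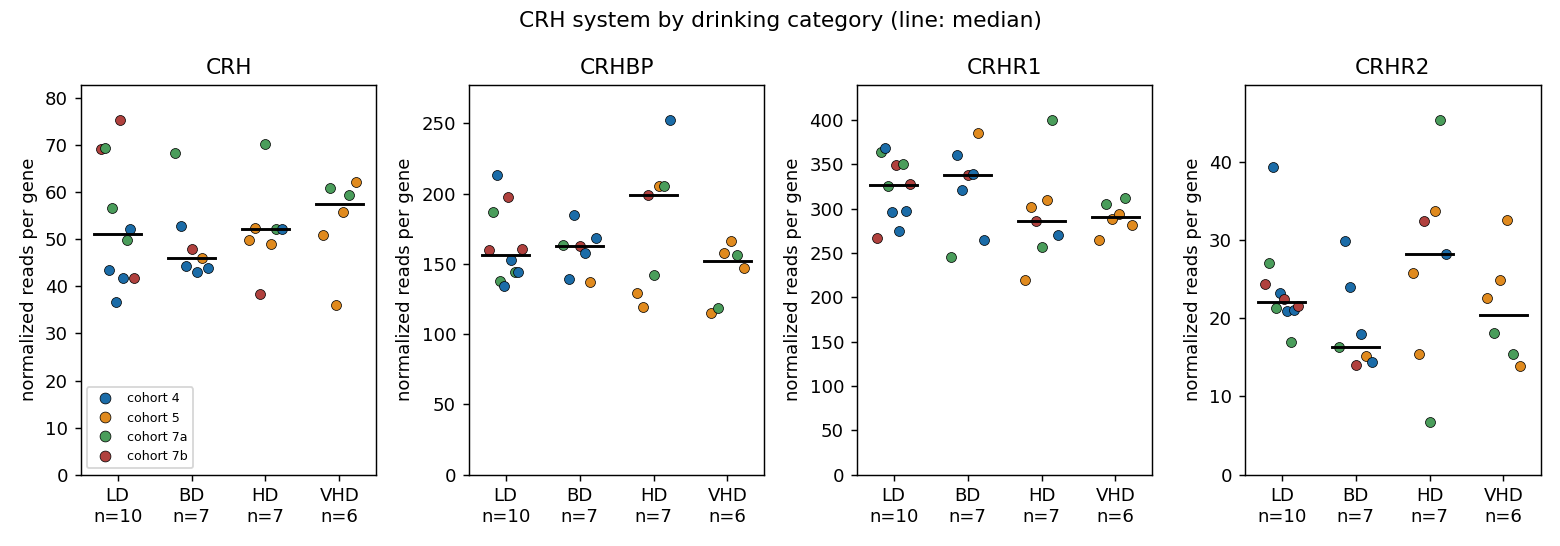
Normalized reads per gene (vertical axes, from 0, own scale for each gene) of CRH, CRHBP, CRHR1 and CRHR2 in each of the 30 animals, by drinking category. Each point is 1 animal, coloured by cohort, and the line is the median. The categories overlap for all 4 genes, and CRHR2 in HD has the widest range, 6.70 to 45.3.

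The binding protein CRHBP was highest in part of the HD animals. Its normalized reads ran from 134 to 213 in the LD animals (median 156), 137 to 185 in the BD animals (median 163), 119 to 252 in the HD animals (median 199) and 115 to 166 in the VHD animals (median 152). HD held the highest animal of the study, 252 in the only HD animal of cohort 4, and also low values of 119 and 129. The HD difference from LD was 0.23 ± 0.14 (SE) by limma (unadjusted p = 0.105, adjusted p = 0.481) and did not pass the test. It was 0.27 by edgeR (adjusted p = 0.430), and 0.11 by limma without that HD animal. Cell markers also differed in HD, though none of the 3 lists given here held a marker past adjustment (lowest limma adjusted p 0.291, endothelial). At an unadjusted p under 0.05 limma counted 12.5% of all genes in HD. Of 10 mural and fibroblast markers 0 were higher and 7 lower than in LD at that limit, with a median difference of -0.64 beside 0.0027 over all genes. Their mean log2 level ran from 7.12 to 8.81 in the HD animals and from 7.75 to 8.58 in the LD animals. Of 8 oligodendrocyte markers 0 were above 0 (median -0.21), and of 6 endothelial markers 2 were higher and 1 lower at an unadjusted p under 0.05. The part of these cells in the HD differences of the 4 members was not tested. For VHD the difference from LD was 0.034 ± 0.16 (adjusted p = 0.985) and for BD -0.0031 ± 0.13 (adjusted p = 0.999) by limma.

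CRHR1, the main receptor for CRH, varied least among the members. Its normalized reads ran from 267 to 368 in the LD animals (median 326), 245 to 386 in the BD animals (median 337), 220 to 399 in the HD animals (median 286) and 265 to 312 in the VHD animals (median 291). The 6 VHD animals lay within the lower part of the LD range, with 1 of them just below its lowest animal. The limma difference was -0.16 ± 0.13 (SE) for VHD against LD (95% interval -0.43 to 0.11, adjusted p = 0.948) and -0.16 ± 0.11 for HD (adjusted p = 0.537). BD differed from LD by 0.0094 ± 0.10 (adjusted p = 0.999), and none of the 3 differences passed the test.

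CRHR2, the receptor of the urocortins, was read least and varied most. Its normalized reads ran from 16.99 to 39.3 in the LD animals (median 22.1), 13.98 to 29.9 in the BD animals (median 16.4), 6.70 to 45.3 in the HD animals (median 28.2) and 13.9 to 32.5 in the VHD animals (median 20.4). The lowest and the highest animal of the study were both HD animals of cohort 7a, the lowest resting on 4 whole reads. BD had the lowest median, and its limma difference from LD was -0.41 ± 0.26 (SE, 95% interval -0.95 to 0.12, adjusted p = 0.999). The differences were 0.063 ± 0.28 for HD (adjusted p = 0.937) and -0.092 ± 0.34 for VHD (adjusted p = 0.976), and none passed the test. The HD value moved with both extreme libraries: it was 0.38 without the lowest and -0.18 without the highest, and 0.29 by edgeR with both.

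**Figure D2:**
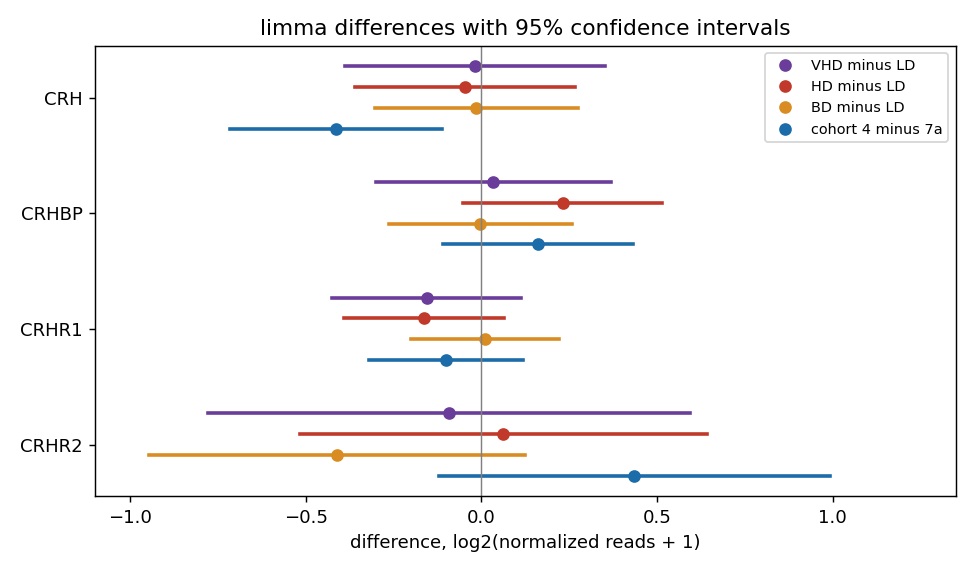
limma differences on the log2(normalized reads + 1) scale (horizontal axis) for each member, with 95% confidence intervals as bars, for VHD, HD and BD against LD and for cohort 4 against cohort 7a. Only the interval of CRH between the cohorts, -0.72 to -0.11, leaves out 0, before adjustment over all genes; those of CRHR2 are the widest.

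Over the whole table, at an adjusted p under 0.05 limma called 0% of the 12935 genes in each category and cohort comparison, and edgeR on the recovered reads called 0 as well. At an unadjusted p under 0.05 limma counted 3.5% of genes for VHD against LD, 12.5% for HD, 3.05% for BD and 5.62% for any difference between categories. In edgeR the counts were 492 genes for VHD, 1518 for HD, 345 for BD and 668 for any category. None of the 4 members was among the genes counted by limma in these comparisons. Over equal steps from LD through BD and HD to VHD the change per step was -0.010 ± 0.057 (SE) for CRH, 0.037 ± 0.054 for CRHBP, -0.059 ± 0.042 for CRHR1 and -0.015 ± 0.11 for CRHR2. The adjusted p of this trend lay between 0.761 and 0.975, beside 6.18% of genes counted unadjusted by limma and 814 genes by edgeR. The 3 category differences share the LD animals and are not independent of each other.

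CRH differed more between cohorts than between drinking categories. In the oldest cohort, cohort 4, its normalized reads ran from 36.6 to 52.8 (median 43.9), and in the youngest, cohort 7a, from 49.8 to 70.3 (median 60.1). The ranges met at their edges only: 6 of 9 cohort 4 animals lay below the lowest cohort 7a animal, and 6 of 8 cohort 7a animals above the highest of cohort 4. Cohort 5 ran from 36.0 to 62.3 (median 50.4). The 5 animals of cohort 7b had 38.4, 41.9, 47.9, 69.3 and 75.3 normalized reads, so they spanned both ends. The medians went down as the mean age of the cohort went up, but the means did not follow that order throughout. Cohorts 5 and 7b, of nearly the same age (7.15 and 7.18 years), had means of 50.3 and 54.5.

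With category in the model, CRH was lower in cohort 4 than in 7a by a limma difference of -0.41 ± 0.15 (SE, unadjusted p = 0.00867), which did not pass adjustment (adjusted p = 0.351). It ranked 319 of 12935 genes by p, where 9.15% of genes (edgeR, 1117 genes) had an unadjusted p under 0.05. The 4 LD animals of cohort 4 ran from 36.6 to 52.3 normalized reads and the 3 of cohort 7a from 49.8 to 69.4, overlapping by 1 animal of each. The test of any difference among the 4 cohorts gave CRH an unadjusted p of 0.0503 by limma (adjusted p = 0.620), where 8.04% of genes by limma and 1059 genes by edgeR were under 0.05. Age and cohort cannot be told apart, since each cohort has 1 mean age.

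No other member passed the test between cohorts 4 and 7a, and only CRHR1 had the same sign as CRH. CRHBP differed between cohorts 4 and 7a by 0.16 ± 0.13 (SE, adjusted p = 0.764), CRHR1 by -0.10 ± 0.11 (adjusted p = 0.834) and CRHR2 by 0.43 ± 0.27 (adjusted p = 0.654), by limma. The CRHR2 difference was -0.068 without the 6 libraries under 6 M reads, 4 of which were of cohort 4 and 1 of 7a. It was 0.24 without that 7a library alone and 0.43 with log2 depth as a covariate. A difference between cohorts in the category trend, tested in addition, gave no member an unadjusted p under 0.05 by limma (lowest 0.152, CRH), where 2.24% of genes were counted by limma and 294 genes by edgeR, and 0 were called after adjustment.

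Cell markers also differed beside the CRH difference between cohorts 4 and 7a, but none passed adjustment by limma. At an unadjusted p under 0.05 limma counted 9.15% of all genes there. Of 22 inhibitory interneuron markers tested, 7 were above 0 in cohort 4 against 7a, with a median difference of -0.084 beside 0.0057 over all genes, and 4 were lower at an unadjusted p under 0.05. Among these were VIP, the peptide of one interneuron class, at -0.44 ± 0.15 (SE, adjusted p = 0.297) and the calcium-binding protein PVALB at -0.72 ± 0.31 (adjusted p = 0.482). GAD1, the GABA-synthesizing enzyme shared by these neurons, was at -0.099 ± 0.069 (adjusted p = 0.702). The mean log2 level of the interneuron list ran from 7.44 to 7.65 in cohort 4 and from 7.43 to 7.75 in 7a. Of 8 oligodendrocyte markers, 8 were above 0 in cohort 4, with a median difference of 0.76 and 7 at an unadjusted p under 0.05. Their mean log2 level ran from 8.20 to 10.4 in cohort 4 and from 8.08 to 8.85 in 7a. Of 10 mural and fibroblast markers 2 were higher and 4 lower in cohort 4 at an unadjusted p under 0.05, and of 10 excitatory neuron markers 2 were higher and 0 lower. With the level of GAD1, GAD2 and SLC32A1 as a covariate the CRH difference was -0.34 (unadjusted p = 0.0379, adjusted p = 0.604). The part of the oligodendrocyte markers in it was not tested.

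**Figure D3:**
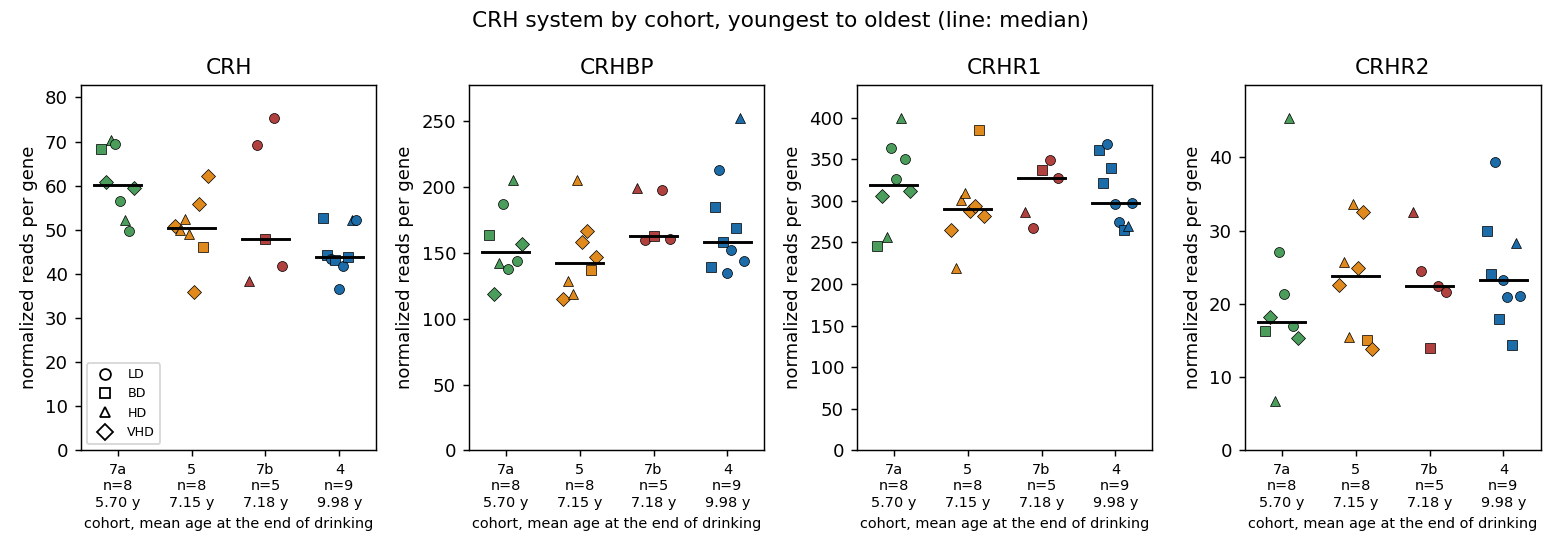
Normalized reads per gene (vertical axes, from 0) of the 4 members in each animal, by cohort in order of mean age at the end of drinking (years). Marker shape gives the drinking category and the line the median. CRH has its highest median, 60.1, in cohort 7a and its lowest, 43.9, in cohort 4, and the other 3 genes overlap throughout.

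Counting error took a larger share of the spread between animals in CRH and CRHR2 than in CRHBP and CRHR1. CRH ranged 2.09-fold from lowest to highest animal, CRHBP 2.19-fold, CRHR1 1.82-fold and CRHR2 6.77-fold. The coefficient of variation was 20.2%, 19.6%, 14.05% and 36.2% for the 4 genes in that order. Counting error alone would give 14.6% for CRH, which was read 21 to 94 times per library, and 22.3% for CRHR2, read 4 to 53 times. That is 52.1% of the variance of CRH and 37.9% of that of CRHR2. For CRHBP, read 77 to 357 times, counting error was 18.01% of the variance, and for CRHR1, read 153 to 561 times, 18.6%. By counting error alone, CRHBP and CRHR1 were thus measured more firmly than CRH. With log2 depth CRHR1 had a Pearson's r of -0.14 over the 30 animals (permutation p = 0.464). Within cohorts 4, 5 and 7a it was -0.95, 0.11 and 0.63. The part of depth in the spread of CRHR1 was not tested.

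The ratio of binding protein to peptide, in reads per gene, ran from 1.95 to 5.19 over the animals (median 2.93). The LD median was 2.82, the BD median 3.40, the HD median 3.93 and the VHD median 2.50, and the ranges of all 4 categories overlapped. The ratio of CRHR1 to CRHR2 reads ran from 8.52 to 38.3 (median 13.8), so CRHR1 was the main receptor transcript in every animal. These ratios are descriptions and were not tested.

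The exon table gave the structure of each gene, at positions and chromosome numbers printed as its exon names give them, on a build that is not given in the sources used here. CRH had 2 exons on chromosome 8: one of 1108 bases (64158747 to 64159854) with 80.9% of its reads on average and one of 318 bases (64160607 to 64160924). CRHBP had 7 exons on chromosome 5 between 73460910 and 73478099, and its last, of 735 bases, held 36.5% of the reads. CRHR1 had 13 exons on chromosome 17 between 54061536 and 54271639, the last of 1935 bases holding 43.4% of the reads. CRHR2 had 12 exons on chromosome 7 between 77226635 and 77257506, and its last, of 1526 bases, held 41.8%. Which parts of these exons are coding or untranslated was not used here.

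The receptors showed their kinship in the exon lengths. Exons 7 to 12 of CRHR1 and exons 6 to 11 of CRHR2, in order of position, had the same lengths of 154, 61, 73, 86, 136 and 42 bases. Along these 6 exons CRHR1 had 138 to 255 normalized reads per kb and CRHR2 6.78 to 21.9. The 42-base exon had the highest density in both genes, 255 per kb in CRHR1 and 21.9 in CRHR2. It is also the shortest exon of both genes. Its CRHR2 value rests on 30 whole reads over the 30 libraries, beside 19.2 per kb for exon 8 of that gene. The part of exon length in these densities was not tested. The first exon by position was the least dense in CRHR1 (33.9 per kb), CRHR2 (1.74) and CRHBP (32.0). CRHR2 reads were too few for a profile within an animal: its first exon was at 0 in 18 of 30 libraries, from 17 whole reads over all of them.

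**Figure D4:**
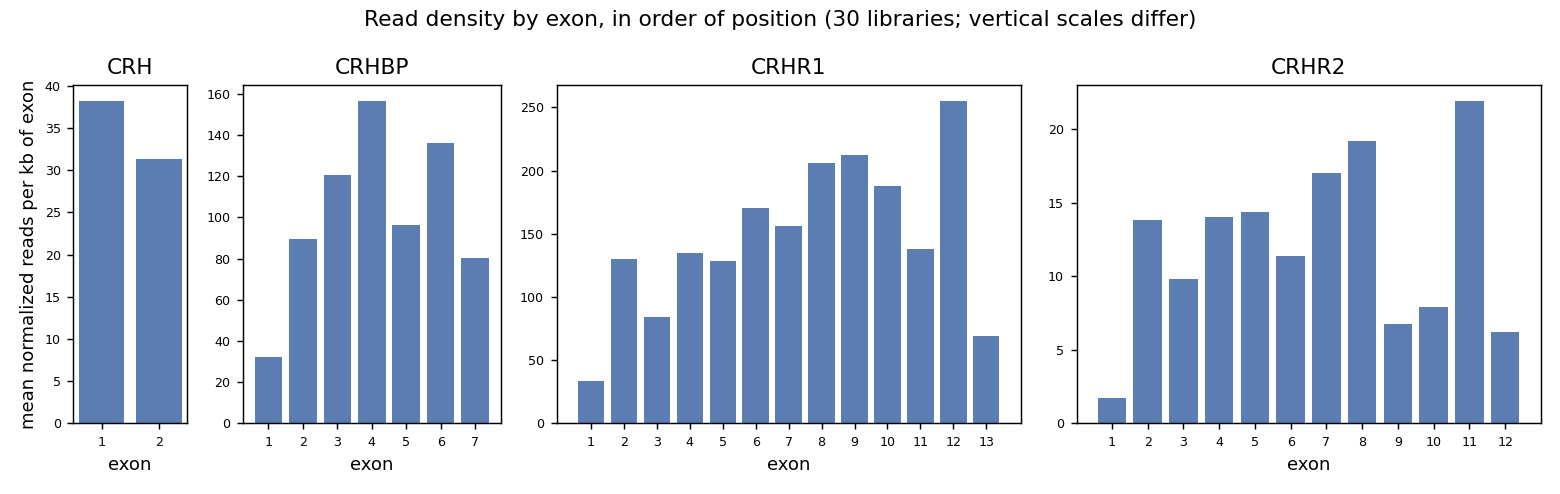
Mean normalized reads per kb of exon over 30 libraries (vertical axes, from 0, own scale for each gene) for each exon of the 4 genes in order of position. The 42-base exon, number 12 in CRHR1 and 11 in CRHR2, is the highest bar of both receptor genes and also their shortest exon. Exon 1 is the lowest in CRHBP and both receptors.

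Exon usage, the log2 ratio of an exon's normalized reads plus 1 to those of the other exons of its gene plus 1, was tested for the 22 member exons that passed a filter of 5 normalized reads in 6 libraries. These were all the exons of CRH, CRHBP and CRHR1 and none of CRHR2. None passed adjustment over 118342 exons for VHD against LD or for cohort 4 against 7a, where limma called 0% of exons and counted 3.67% and 5.29% at an unadjusted p under 0.05. The smaller CRH exon had a higher share in VHD by 1.12 ± 0.43 (SE, unadjusted p = 0.0142, adjusted p = 0.9999), and the larger exon the mirror value, since CRH has only 2. Its share of CRH reads ran from 15.8% to 23.5% (median 19.8%) in VHD and from 0% to 26.5% (median 13.7%) in LD. The LD animal at 0% had 21 CRH reads in all, and the next lowest LD animal was at 6.82%. In cohort 4 the fifth CRHBP exon had a higher share than in 7a by 0.77 ± 0.29 (SE, unadjusted p = 0.0139, adjusted p = 0.923). The 120-base and the 42-base exon of CRHR1 (exons 3 and 12), which known splice forms of this receptor leave out, held 3.28% and 3.48% of its reads and did not pass the test either.

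Across the 30 animals CRHBP and CRHR2 rose and fell together, and no other pair of members did so past the test. For CRHBP and CRHR2 Pearson's r was 0.50 (permutation p = 0.00558, adjusted p = 0.0335 over 6 pairs) and Spearman's rho 0.46 (permutation p = 0.0105, adjusted p = 0.0631), so the rank measure missed the threshold. Without the 2 animals farthest from the median on CRHBP r was 0.54. Within cohorts r was 0.41 in cohort 4 (9 animals), 0.59 in cohort 5 (8) and 0.60 in 7a (8), and cohort 7b was too small. After removal of category and cohort means r was 0.51 (permutation p, adjusted, 0.0184), and after removal of log2 depth it was 0.50 (adjusted p = 0.0317). The permutations did not count the removed terms, so these 2 adjusted p-values come out too low. They do not settle whether the relation passes after the removal. The levels of CRHBP and CRHR2 come from the same libraries, and CRHR2 rests on 4 to 53 reads.

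No relation of the peptide with its binding protein or its receptors passed the test. Counting error was 52.1% of the variance of CRH, so these tests cannot show that a relation is absent. Pearson's r over the 30 animals was -0.031 for CRH with CRHBP (permutation p = 0.872), -0.076 with CRHR1 (permutation p = 0.691) and -0.27 with CRHR2 (permutation p = 0.153), with Spearman's rho of -0.083, -0.075 and -0.18 (permutation p = 0.662, 0.695 and 0.344). CRHR1 with CRHBP gave r of 0.23 (permutation p = 0.213) and CRHR1 with CRHR2 0.28 (permutation p = 0.136), with rho of 0.19 in both (permutation p = 0.304 and 0.318). The adjusted p-values of these 5 pairs were 0.305 or above. For the receptors r was 0.59 in cohort 4, -0.31 in cohort 5 and 0.80 in 7a. In the same order, CRH had r of 0.26, -0.12 and -0.0088 with CRHBP. With CRHR1 it had 0.072, -0.15 and -0.65, and with CRHR2 0.23, -0.24 and -0.48.

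By Pearson's r CRH went with the interneuron peptide VIP and CRHBP with the interneuron peptide SST. By rank both relations had the same sign and narrowly missed the threshold after adjustment. Of 20 relations between the 4 members and SST, VIP, GAD1, NR3C1 and FKBP5, 4 had an adjusted p under 0.05 by Pearson's r and 0 by Spearman's rho. CRH rose with VIP: r was 0.57 (permutation p = 0.000980, adjusted p = 0.0196) and rho 0.53 (permutation p = 0.00301, adjusted p = 0.0508). Without the 2 farthest animals r was 0.52, but within cohorts 4, 5 and 7a it was 0.027, 0.37 and 0.69. After removal of category and cohort means together r was 0.38 (adjusted permutation p = 0.0848). The part of the cohorts alone in this relation was not tested.

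CRHBP rose with SST, the somatostatin gene of another interneuron class: r was 0.52 (permutation p = 0.00366, adjusted p = 0.0366) and rho 0.51 (permutation p = 0.00508, adjusted p = 0.0508). Pearson's r was 0.44 without the 2 farthest animals and 0.47, 0.64 and 0.50 within cohorts 4, 5 and 7a. After removal of category and cohort means it was 0.56 (adjusted permutation p = 0.0244). That p did not count the removed terms and comes out too low, so it does not settle whether the relation passes after the removal. Neither CRH with SST (r = 0.0054, permutation p = 0.978) nor CRHBP with VIP (r = -0.21, permutation p = 0.257) passed the test. CRHR2 went down with VIP (r = -0.47, permutation p = 0.00826, adjusted p = 0.0413, rho = -0.33, permutation p = 0.0788) and with the glucocorticoid receptor gene NR3C1 (r = -0.49, permutation p = 0.00690, adjusted p = 0.0413, rho = -0.43, permutation p = 0.0182). Without the 2 farthest animals these were -0.37 and -0.38, within cohorts 4, 5 and 7a they were -0.67, -0.093 and -0.61 for VIP and -0.79, -0.045 and -0.50 for NR3C1, and after removal of category and cohort means neither passed (adjusted p = 0.0645 and 0.0531). The mean levels of 10 cell marker lists gave 40 relations with the members, none of which passed adjustment. The highest was CRH with the inhibitory interneuron list (r = 0.49, adjusted permutation p = 0.236, rho = 0.46, adjusted permutation p = 0.269).

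**Figure D5:**
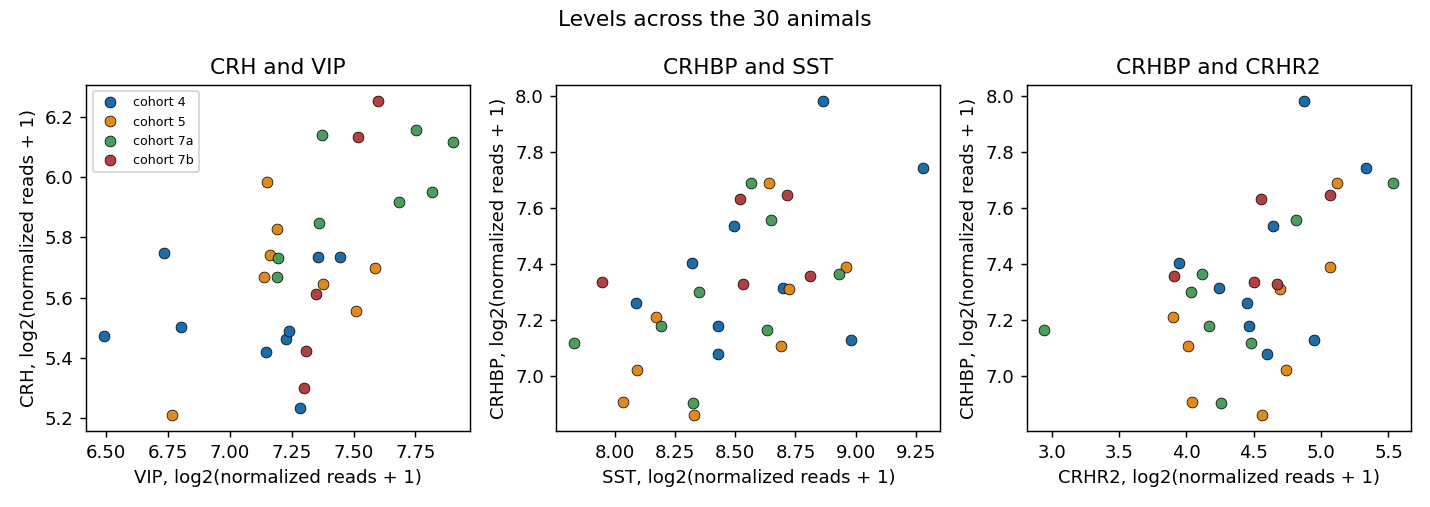
Levels of CRH against VIP, CRHBP against SST and CRHBP against CRHR2 in the 30 animals, both axes in log2(normalized reads + 1), coloured by cohort. Pearson's r is 0.57, 0.52 and 0.50, and in the first panel most cohort 4 animals lie to the lower left.

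The genes most like each member over the 30 libraries, by Pearson's r of log2 values among 12916 genes, are given as a description. For CRH they were KCNIP1 (r = 0.79), a potassium channel partner, ARHGAP10 (0.77), BTBD11 (0.74), GRIN2A (0.73), an NMDA receptor subunit, and PIP5K1B (0.66), where the 99th percentile of r was 0.50. For CRHBP they were PLCXD2 (0.67), the orphan receptor GPR176 (0.67), TOMM34 (0.65), CARHSP1 (0.64) and TM7SF2 (0.63), where it was 0.49. CRHR1 had the closest likenesses: PDE2A (0.85), a phosphodiesterase that breaks down cyclic nucleotides, ZNF512B (0.83), DBN1 (0.82), the dendritic spine protein drebrin, ASTN1 (0.82) and PITPNM2 (0.81), where the 99th percentile was 0.71. For CRHR2 they were TMEM159 (0.75), ZNF775 (0.71), the channel TRPV2 (0.69), CXXC11 (0.69) and SMARCD3 (0.68), where it was 0.55. No gene was among the 5 of more than 1 member.

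No gene around the system passed the test of a difference between drinking categories or cohorts. Of 22 stress axis genes 17 were tested, of 37 genes of CRHR1 signalling 33, and of 11 regulators of the CRH gene 6, and 0 of them passed the adjusted limma test in any comparison. For VHD against LD 9 of 17, 17 of 33 and 4 of 6 were above 0, with median differences of 0.025, 0.0024 and 0.13 beside -0.00033 over all genes, and 0 in each list had an unadjusted p under 0.05. For HD, 1 stress axis gene was higher and 1 lower at an unadjusted p under 0.05, and 2 signalling genes were higher and 3 lower, where 12.5% of all genes were counted.

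In the stress axis, NR3C1 differed between VHD and LD by 0.12 ± 0.092 (SE, adjusted p = 0.948) and FKBP5, a co-chaperone that is induced by it, by 0.025 ± 0.27 (adjusted p = 0.994), by limma. The 3 smallest p-values of the list in VHD were those of the oxytocin receptor OXTR (1.09 ± 0.67, read at a median of 6.79 normalized reads), the carboxypeptidase CPE (0.088 ± 0.063) and the mineralocorticoid receptor NR3C2 (-0.12 ± 0.093), each with an adjusted p of 0.948. POMC, which encodes the precursor of the corticotropin that CRH releases in the pituitary, was too low to test, at 0 to 13.8 normalized reads (median 5.23).

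In the signalling list the 3 smallest p-values were those of GRK6 (-0.23 ± 0.12), a kinase that phosphorylates active receptors, the adenylyl cyclase ADCY3 (-0.22 ± 0.11) and the cyclic AMP sensor RAPGEF4 (0.19 ± 0.097), each with a limma adjusted p of 0.948. Among regulators of the CRH gene they were those of the immediate early genes NR4A2 (0.60 ± 0.30) and NR4A1 (0.17 ± 0.17) and of YY1 (0.10 ± 0.087), also with adjusted p-values of 0.948. SST differed by 0.23 ± 0.20, VIP by 0.11 ± 0.18 and GAD1 by -0.084 ± 0.086 between VHD and LD (adjusted p = 0.948, 0.958 and 0.948). UCN differed by -0.13 ± 0.33 (adjusted p = 0.969).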

How the data were processed

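RNA of cortical area 32 was measured in 30 libraries, 1 per animal. The labels speak of 31 animals, of which 1 outlier was removed by the authors. The deposited values are a signal, reads per gene or exon that the authors scaled to 1 upper quartile, as the file names and values show. The submitters' processing notes name CASAVA, FastQC, STAR 2.3.0e and edgeR. The build, the annotation, the counting program and its use of strand were not given in the sources used here. Dividing each library by its smallest value returned whole reads within 0.01. Members and gene lists were chosen with earlier results of these data known. All 4 members were matched by symbol to reference tables (assembly T2T-MMU8v2.0, names only), and no sequence was used.

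Genes reaching 10 normalized reads in 6 or more libraries were tested on the log2(value + 1) scale with limma 3.58.1 in R 4.3.3 (lmFit, eBayes with a mean trend), with drinking category and cohort as terms and Benjamini-Hochberg adjustment over all tested genes. Exon usage was tested by limma with the same terms on the log2 ratio given above, without a mean trend. Its filter was 5 normalized reads in 6 libraries, and adjustment was over all tested exons. edgeR 4.0.16 (TMM, quasi-likelihood) was run on the recovered reads. Correlations used 100000 two-sided permutations in scipy 1.17.1 (Python 3.11.15), and p-values were adjusted within each family. Residuals were permuted without counting the terms removed, which makes their p-values too low. Figures were drawn with matplotlib 3.10.9. The scripts were tested on simulated data. The genes named are the 4 members, the 3 with the smallest p for VHD against LD in each of the stress axis, signalling and regulator lists, 9 genes named whatever their value, and the 5 most alike to each member. PVALB and the cell markers beyond these were named after their values were seen. The 20 relations with single genes and the test of the trend between cohorts were added after the data were seen. Alternatives were other pseudocounts, filters and scalings, edgeR, diffSplice for exons, covariates, single cohorts and leaving out each library.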

Additional observations from a re-analysis of the deposited data

Results flagged for a closer look

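Of 16 groups (4 members in 4 drinking categories) 1 held an animal far from the others, and chance flags about 1 in 20 such groups. This was CRH in VHD: the third VHD animal, of cohort 5, had 36.0 normalized reads, from 26 whole reads, where the other 5 ran from 50.9 to 62.3. The gap to its neighbour was 0.632 of the range of the group on log2 values, past the limit for 6 samples, and 0.569 on normalized reads, which is within it. Its CRHBP (158 normalized reads), CRHR1 (288) and CRHR2 (24.9) lay inside the VHD range.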

How the results depend on the processing

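No member and no member exon passed an adjusted p of 0.05 under any setting run. Of 226 member differences under other settings 26 changed sign, all without a call. Without the cohort term the difference from LD was 0.032 for CRH and -0.18 for CRHBP in VHD, and -0.0066 for CRHR1 in BD; the trend was 0.011 for CRH and -0.034 for CRHBP. With the inhibitory neuron level as covariate CRH was at 0.020 in VHD, 0.0062 in BD and 0.0017 in the trend, and CRHBP at 0.014 in BD. With log2 depth as covariate CRHBP in BD was 0.011. Within cohort 7a CRH was at 0.049 in VHD, 0.060 in HD, 0.23 in BD and 0.012 in the trend. There CRHBP was at -0.18, 0.079 and -0.038 in VHD, BD and the trend, CRHR1 at -0.49 in BD (1 BD animal, unadjusted limma p = 0.0480) and CRHR2 at -0.25 in HD. The CRHR2 trend was 0.026 by edgeR. After the data were seen, a term for 4 sets of 8 library numbers was added, giving CRHR2 0.10 in VHD and 0.068 in the trend. Leaving out the 6 libraries under 6 M reads was added too, giving 0.062 for CRHBP and -0.055 for CRHR1 in BD, and for CRHR2 0.039 in the trend and -0.068 for cohort 4 against 7a. Among correlations, residuals after cohort and category gave 0.065 for CRH with CRHBP. For marker levels they gave 0.00029 (CRH, endothelial), 0.28 (CRHBP, mural and fibroblast), -0.071 (CRHR1, choroid plexus), -0.069 (CRHR2, oligodendrocyte) and 0.065 (CRHR2, striatum). The cause of these changes was not tested. Unadjusted limma p-values under 0.05 for categories, other than that of CRHR1 above, came for HD with CRHBP in 3 settings (lowest 0.00698), CRHR1 in 1 (0.0257) and CRHR2 in 1 (0.0241), for BD with CRHR2 in 1 (0.0169), and for any category with CRHBP in 2 (lowest 0.0169) and CRHR2 in 2 (lowest 0.0012).

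Leaving out each library in turn gave ranges that crossed 0 in VHD for CRH (-0.081 to 0.069), CRHBP (-0.033 to 0.16) and CRHR2 (-0.18 to 0.0074), and in HD for CRH (-0.12 to 0.097) and CRHR2 (-0.18 to 0.38). In BD they did so for CRH (-0.062 to 0.034), CRHBP (-0.049 to 0.053) and CRHR1 (-0.042 to 0.12), and in the trend for CRH (-0.032 to 0.026), CRHBP (-0.00074 to 0.078) and CRHR2 (-0.062 to 0.028). The CRH difference between cohorts 4 and 7a kept its sign in all of them, from -0.48 to -0.37, and its adjusted p over the 41 settings that gave a value ran from 0.173 to 0.604. Its unadjusted p, by limma or edgeR, was under 0.05 in all 41. For CRHR1 this was so in 3 settings (lowest 0.0389, limma) and for CRHR2 in 1 (0.0288, limma). Leaving out each library gave CRHR1 differences between these cohorts of -0.23 to -0.044. In the test of any difference among the cohorts CRH had an unadjusted limma p under 0.05 in 15 of 41 settings (lowest 0.0272). In the test of the category trend between cohorts it did so in 1 of 40 (0.0234). A minimum of 100 normalized reads left out CRH and CRHR2, which then had no value. No paired analysis was possible because the labels give no replicate numbers that pair animals across categories. Depth limits CRH and CRHR2 most, since a library held as few as 21 and 4 of their reads.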
